A study of Mus musculus with 2 samples.

Results

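Leukocytes leave the blood by way of adhesion molecules on the vessel wall, and 8 genes of that system were followed here in endothelial cells of the mouse brain: the adhesion molecules Vcam1, Icam1 and Icam2, the interleukin-1 receptor Il1r1, the chemokine receptor Ackr1, the sterol hydroxylase Ch25h, the lipocalin Lcn2 and the chemokine Cxcl10. The 8 genes, of 25906 listed, were picked by symbol, and they were picked with their levels in these libraries known, so every difference between the libraries is given as a description. In brief, Il1r1, Vcam1 and Icam1 were higher in endothelial cells of the library labelled IL34LacZ/LacZ than in those of the library labelled IL34LacZ/+. Icam2 was lower. In the library labelled IL34LacZ/LacZ, 1 venous cell held 51.5% of all endothelial Vcam1 counts and 31.3% of the Icam1 counts, while Il1r1 was detected in 83.7% of venous cells there and in 55.7% of those of the library labelled IL34LacZ/+.

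As background, interleukin-1 bound to Il1r1 and its partner Il1rap recruits Myd88 and the Irak kinases, and through Traf6 activates the transcription factor NF-kB. NF-kB turns on Vcam1, Icam1 and chemokine genes in endothelium, and it also induces its own inhibitor Nfkbia. Post-capillary venules are the vessel segment at which leukocytes usually adhere and cross, and in healthy brain the endothelium carries little Vcam1 and Icam1.

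The study compared adult mice homozygous for a LacZ allele of Il34 (IL34LacZ/LacZ), which its design text calls knockout, with mice heterozygous for the same allele (IL34LacZ/+), which it calls wild type, so both groups carried the LacZ allele. Il34 encodes interleukin-34, which signals to microglia and macrophages of the brain through Csf1r. Single-cell RNA was measured in 1 library per genotype from cells of whole brain that the labels describe as sorted endothelial cells and astrocytes, although the sample titles name astrocytes alone. The sources used here do not say how many mice were pooled, which markers guided the sort or where the LacZ insertion lies.

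In all, 36696941 unique molecular identifiers (UMIs, the count of distinct captured transcripts) came from 5400 barcodes of the library labelled IL34LacZ/LacZ, and 26679053 from 3901 barcodes of the library labelled IL34LacZ/+. Filters left 1168 and 1665 cells, and 2 of these barcodes were present in both libraries. Barcodes with over 15% mitochondrial UMIs, which were removed, made up 47.8% of the IL34LacZ/LacZ and 38.5% of the IL34LacZ/+ barcodes. Il34 itself had its highest level, among the classes compared, in pericyte-gated cells. It stood there at 496 CPM (UMIs per 1000000 of the class, 415 to 589) in the library labelled IL34LacZ/LacZ and 375 CPM (288 to 478) in the library labelled IL34LacZ/+. Fibroblast-gated cells had 97.4 CPM (80.0 to 117) and 76.9 CPM (61.1 to 95.4). Their Il34 UMIs numbered 109 and 82, against 131 and 64 in pericyte-gated cells. The targeted gene was thus not measurably lower under the label that should lack it, and the tag of a 3-prime library checks nothing where it lies outside the disrupted region. Every direction below rests on the library labels alone. All intervals are 95% intervals for counting error only, and a test across samples could not be made with a single library per genotype.

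Cells were assigned to a class when at least 4 of its 8 marker genes were detected and that class led the next by at least 2 markers. Endothelial-gated cells numbered 299 (25.6% of cells) and 516 (31.0%), with a median of 4883 and 4434 UMIs. The gate used the 8 endothelial markers, which summed to 16761 and 19751 CPM, so their presence checks nothing. Cd34 and Podxl, endothelial genes that the gate did not use, were also present at levels given below. Of 8 lymphocyte markers, 0 had a UMI in endothelial-gated cells of the library labelled IL34LacZ/LacZ and 1 had in the library labelled IL34LacZ/+. Of 8 neutrophil markers, 1 and 3 had a UMI, summing to 1 and 4 UMIs. Monocyte markers summed to 965 and 1587 UMIs (571 and 579 CPM), of which 960 and 1582 were Fn1, which other cell types express too, while Ccr2, Plac8 and Chil3 had 0 UMIs in both libraries. Microglia markers summed to 619 and 1282 UMIs (366 and 468 CPM), among which Cx3cr1 had 5 and 9 UMIs, Csf1r 3 and 5, P2ry12 2 and 2, and Tmem119 0 in both. Perivascular macrophage markers summed to 123 and 214 UMIs, of which 122 and 212 were Stab1. Free RNA was present in both, as the haemoglobin gene Hbb-bs reached a median of 1488 and 1330 CPM per endothelial-gated cell and the choroid plexus gene Ttr 976 and 1460 CPM. The part of free RNA in the differences below was not tested.

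Endothelial-gated cells were divided into vessel zones by markers that include none of the 8 genes. Venous-gated cells numbered 49 of 299 (16.4%, 12.4 to 21.1) in the library labelled IL34LacZ/LacZ and 70 of 516 (13.6%, 10.7 to 16.8) in the library labelled IL34LacZ/+. Arterial-gated cells numbered 13 and 46, capillary-gated cells 213 and 377, and fenestrated-gated cells 8 and 10. Venous-gated cells were deeper than other endothelial cells, with a median of 7605 and 6720 UMIs. Those with just 3 venous markers, at the limit of the gate, numbered 19 and 34.

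Il1r1 (ENSMUSG00000026072), the signalling receptor for interleukin-1, lies on chromosome 1 at 40225080 to 40317257, plus strand, in GENCODE M21 on GRCm38. Endothelial-gated cells held 599 Il1r1 UMIs (355 CPM, 327 to 384) in the library labelled IL34LacZ/LacZ and 396 UMIs (144 CPM, 131 to 159) in the library labelled IL34LacZ/+, a log2 ratio of 1.30 (1.11 to 1.48). It was detected in 22.4% and 16.9% of these cells. In oligodendrocyte-gated cells, a class with more UMIs per cell, it was found in 0 of 237 cells and in 2 of 252 cells. The count of 0 allows up to 1.27% of cells with a captured UMI, which sets no limit on cells that express the gene.

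Il1r1 was concentrated in venous cells. They were 16.4% and 13.6% of endothelial-gated cells and held 87.1% and 80.1% of the endothelial Il1r1 UMIs. The ratio of venous to other endothelial cells was 4.43 (4.08 to 4.80) and 4.08 (3.72 to 4.45) on the log2 scale. Vcam1 stood at 3.74 and 2.29, Icam1 at 3.75 and 2.16 and Icam2 at 0.87 and 0.33. Without the 1 venous cell of the library labelled IL34LacZ/LacZ with most Vcam1, the value there was 2.31 (1.77 to 2.85) for Vcam1, close to that of the other library, and 3.08 (2.34 to 3.86) for Icam1. Among all genes measured, 2.11% of 3310 and 1.26% of 4756 were higher past 2-fold in venous cells. The venous Il1r1 level was 1293 CPM (1184 to 1408) in the library labelled IL34LacZ/LacZ and 603 CPM (538 to 673) in the library labelled IL34LacZ/+, a log2 ratio of 1.10 (0.90 to 1.31). Single venous cells of the library labelled IL34LacZ/LacZ held 0 to 69 Il1r1 UMIs with a median of 5, and 41 of 49 (83.7%) held at least 1. Those of the library labelled IL34LacZ/+ held 0 to 45 with a median of 1.5, and 39 of 70 (55.7%) held at least 1. The ranges overlapped widely, but cells with at least 10 UMIs numbered 18 of 49 against 7 of 70. The counts were nonetheless uneven, and the top 7 and top 5 venous cells were enough to hold 50% of the venous Il1r1 UMIs. With every cell thinned to 3000 UMIs and the zones gated again, Il1r1 was found in 25 of 30 venous cells (83.3%) of the library labelled IL34LacZ/LacZ and in 18 of 39 (46.2%) of the library labelled IL34LacZ/+. Capillary-gated cells had an Il1r1 level of 51.5 CPM (38.9 to 66.9) and 34.8 CPM (26.7 to 44.7), while the shares of capillary cells with a UMI ran the other way, at 9.39% and 10.3%. Arterial cells were nearly free of it, with 1 and 5 UMIs. The few fenestrated-gated cells held 19 and 4 UMIs.

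Outside endothelium the Il1r1 level was lower than in endothelial-gated cells as a whole. The shares of pericyte-gated and fibroblast-gated cells with a UMI were nonetheless above the endothelial ones. Endothelial cells outside the venous gate, at 59.9 CPM (47.3 to 74.9) and 35.7 CPM (28.2 to 44.4), were not above pericyte-gated cells. Pericyte-gated cells had 68.2 CPM (40.4 to 108) and 70.2 CPM (36.3 to 123). Fibroblast-gated cells had 29.5 CPM (20.3 to 41.4) and 43.1 CPM (31.6 to 57.5), and choroid plexus epithelium had 16.6 CPM (12.8 to 21.2) and 13.6 CPM (10.5 to 17.4). In each of these 3 classes the intervals of both libraries overlapped. Il1r1 was detected in 27.1% and 20.6% of pericyte-gated cells, whose median depth was 4813 and 4149 UMIs. It was also found in 28.9% and 28.8% of fibroblast-gated cells and in 18.8% and 13.5% of choroid plexus cells, which were deeper. The plot of levels by cell class shows this for the 4 members with at least 100 endothelial UMIs over both libraries.

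**Figure D1:**
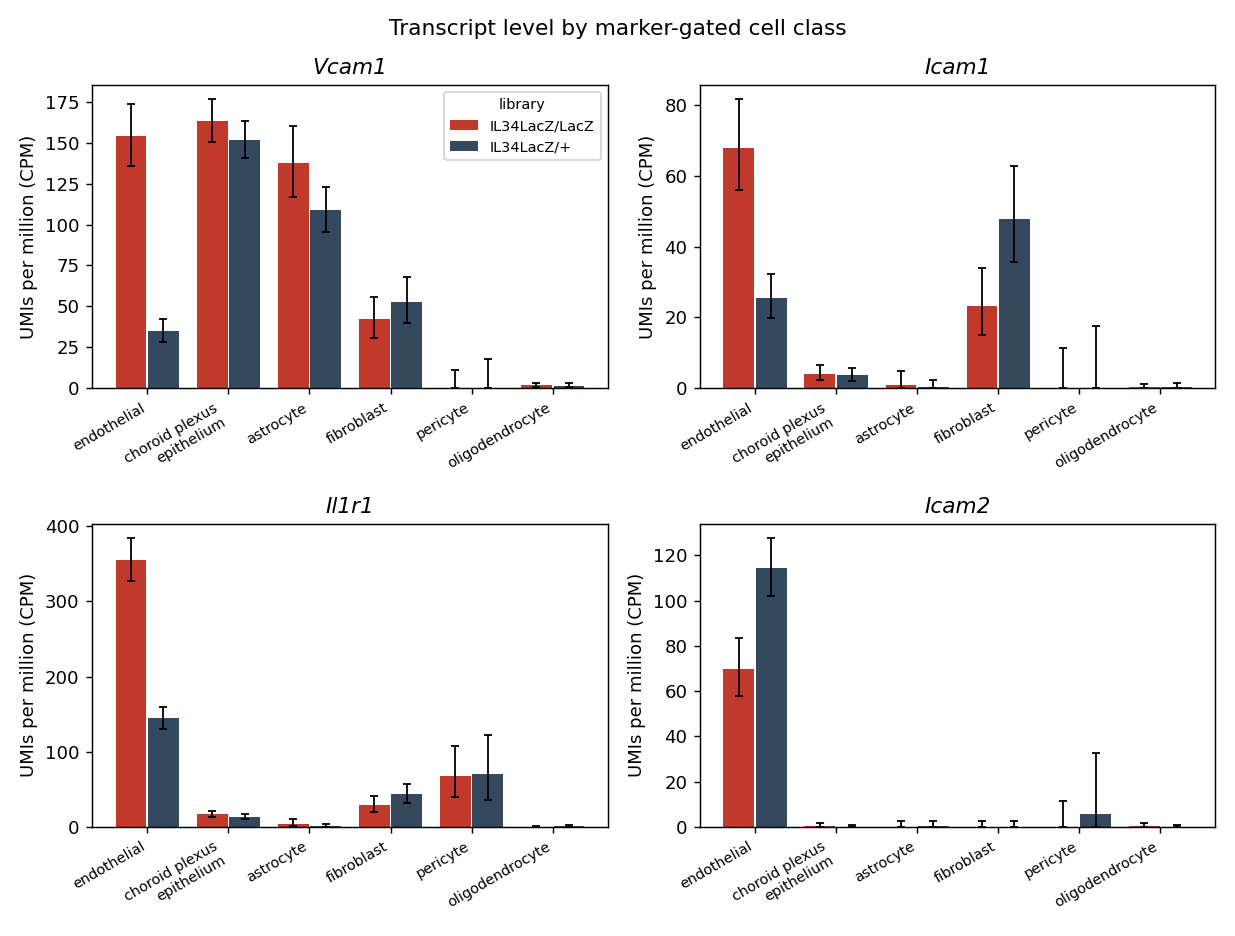
Level of 4 genes (CPM, y axis from 0) in 6 marker-gated cell classes (x axis), with bars for the library labelled IL34LacZ/LacZ (red) left of the library labelled IL34LacZ/+ (blue-grey) and 95% Poisson intervals for counting error. Il1r1 and Icam2 are highest in endothelial cells, at 355 and 144 CPM for Il1r1 and at 69.8 and 114 CPM for Icam2, while Vcam1 stands at 163 and 152 CPM in choroid plexus epithelium and at 154 and 34.7 CPM in endothelial cells.

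Vcam1 (ENSMUSG00000027962, chromosome 3, 116109949 to 116129688, minus strand) is the ligand of the leukocyte integrin made of Itga4 and Itgb1. Endothelial-gated cells held 260 Vcam1 UMIs (154 CPM, 136 to 174) in the library labelled IL34LacZ/LacZ and 95 UMIs (34.7 CPM, 28.0 to 42.4) in the library labelled IL34LacZ/+. The log2 ratio was 2.15 (1.81 to 2.51), or 4.44-fold. The shares of cells with a UMI were far closer, at 29 of 299 (9.70%) and 33 of 516 (6.40%), against 2.95% and 1.59% of the deeper oligodendrocyte-gated cells. After thinning to 3000 UMIs they were 6.02% and 5.01%.

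In venous cells Vcam1 was detected in 19 of 49 cells (38.8%, 25.2 to 53.8) and 14 of 70 cells (interval 11.4 to 31.3%), and in 33.3% and 15.4% after thinning, while the median positive cell held 2 and 2.5 UMIs. The 19 positive venous cells of the library labelled IL34LacZ/LacZ held 134, 17, 13, 10, 10, 5, 4, 3, 3 and 2 UMIs in the highest 10 and 1 UMI each in the rest. The 14 of the library labelled IL34LacZ/+ held 10, 8, 6, 6, 6, 3, 3, 2 and 2 UMIs and 1 each in the rest. The cell with 134 stood far above all others, and below it the ranges of the libraries overlapped. Without that cell Vcam1 was 75.0 CPM (62.5 to 89.3) in endothelial-gated cells of the library labelled IL34LacZ/LacZ, and the log2 ratio fell to 1.11 (0.72 to 1.51).

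By zone, Vcam1 was a gene of arteries and veins in both libraries and was nearly absent between them. Venous cells had 520 CPM (210 UMIs) and 97.0 CPM (51 UMIs), a log2 ratio of 2.42 (1.98 to 2.89). Without the single high cell the venous level was 192 CPM and the ratio 0.99 (0.46 to 1.53). Arterial cells had 471 CPM (342 to 633) and 93.4 CPM (63.0 to 133), a log2 ratio of 2.33 (1.63 to 3.06). That arterial value came from 15, 14, 7, 5, 1, 1 and 1 UMIs in 7 of 13 cells of the library labelled IL34LacZ/LacZ, and from 7, 5, 5, 4, 2, 2, 2, 2 and 1 UMIs in 9 of 46 cells of the library labelled IL34LacZ/+. Capillary cells held 2 UMIs in 213 cells and 11 UMIs in 377 cells.

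Endothelium was not the main source of Vcam1 in this sort. Choroid plexus epithelium held 55.6% and 62.5% of all Vcam1 UMIs, endothelial-gated cells 22.9% and 8.33%, and astrocytes 14.0% and 21.8%. Choroid plexus epithelium had 163 CPM (151 to 177) and 152 CPM (141 to 163), a log2 ratio of 0.11 (−0.05 to 0.26). Astrocyte-gated cells had 137 CPM (117 to 161) and 109 CPM (95.7 to 123), a log2 ratio of 0.34 (0.04 to 0.63). Pericyte-gated cells held 0 Vcam1 UMIs in both libraries, which allows up to 11.4 and 17.6 CPM. In the library labelled IL34LacZ/LacZ the intervals of choroid plexus epithelium, endothelium and astrocytes overlapped, so their order was not resolved. That overlap rested on the single high cell, and without it endothelium, at 75.0 CPM (62.5 to 89.3), lay below both of the others, as it did in the library labelled IL34LacZ/+.

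Icam1 (ENSMUSG00000037405, chromosome 9, 21015985 to 21028817, plus strand) binds integrins with the Itgb2 chain on leukocytes and is a classical NF-kB target. RefSeq promoters on GRCm38.p6, from 250 bases before to 50 bases after the start, were given for 6 of the 8 genes. Those of Icam1 and Cxcl10 are shown because of these 6 they alone held the 9-letter NF-kB core GGAANTTCC, searched on both strands. Capitals mark the matched motifs: the core in Icam1 (153 to 145 bases before the start) and a TATAAA box (14 to 19 bases after it), and in Cxcl10 an interferon-stimulated response element (213 to 204 bases before the start) and 2 matches of the NF-kB consensus (159 to 150 and 103 to 94 bases before it), the first of which contains the core.
Icam1 chr9:21015690-21015989, plus strand: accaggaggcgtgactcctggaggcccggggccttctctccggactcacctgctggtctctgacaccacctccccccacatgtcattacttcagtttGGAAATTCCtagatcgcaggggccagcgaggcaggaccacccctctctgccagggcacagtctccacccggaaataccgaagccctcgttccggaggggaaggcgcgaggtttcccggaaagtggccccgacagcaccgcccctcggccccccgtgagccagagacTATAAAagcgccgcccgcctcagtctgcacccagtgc
Cxcl10 chr5:92348840-92349139, minus strand: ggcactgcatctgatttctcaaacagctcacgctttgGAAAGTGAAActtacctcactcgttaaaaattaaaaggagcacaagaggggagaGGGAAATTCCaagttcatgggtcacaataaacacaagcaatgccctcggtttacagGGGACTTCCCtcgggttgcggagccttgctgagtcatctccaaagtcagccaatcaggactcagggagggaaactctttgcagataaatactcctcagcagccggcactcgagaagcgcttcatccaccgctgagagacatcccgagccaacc
Among 32841 promoters of the same length, 0.929% held the core, 4.51% the NF-kB consensus, 3.44% the response element and 13.6% TATAAA. The second of the Il1r1 promoters held 1 match of the consensus and that of Ch25h 1 TATAAA, and those of Ackr1 and Lcn2 held none of the 4 motifs. Distances are counted from the RefSeq start, which for Icam1 lies before the GENCODE start given above. The Icam1 TATAAA box, after the RefSeq start, thus lies before the GENCODE start. A match is a run of letters and not a measured binding site.

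Endothelial-gated cells held 115 Icam1 UMIs (68.1 CPM, 56.2 to 81.7) in the library labelled IL34LacZ/LacZ and 70 UMIs (25.5 CPM, 19.9 to 32.3) in the library labelled IL34LacZ/+, a log2 ratio of 1.41 (0.97 to 1.86). The shares of cells with a UMI were 30 of 299 (10.0%) and 38 of 516 (7.36%), and 6.48% and 4.22% after thinning, against 0.422% and 0.397% of oligodendrocyte-gated cells. Positive venous cells held 36, 29 and 10 UMIs at the top and 1 to 3 below in the library labelled IL34LacZ/LacZ, and 1 to 6 UMIs in the library labelled IL34LacZ/+. The top 3 cells of the library labelled IL34LacZ/LacZ thus lay above every venous cell of the other library, and the rest overlapped.

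Venous cells held 80.9% and 51.4% of the endothelial Icam1 UMIs, at 230 CPM (93 UMIs) and 68.5 CPM (36 UMIs), a log2 ratio of 1.75 (1.18 to 2.35). Elsewhere in the endothelium no difference was detectable at this depth. Capillary cells had 16.5 CPM (9.81 to 26.2) and 16.9 CPM (11.4 to 24.1), and all cells outside the venous gate differed by a log2 ratio of 0.16 (−0.69 to 0.97). The cell with 134 Vcam1 UMIs was also the highest for Icam1. Without it the log2 ratio was 0.88 (0.40 to 1.37) in endothelial-gated cells and 1.08 (0.45 to 1.72) in venous cells, and the cell with 29 UMIs then held 50.9% of the venous Icam1 counts. Without the 2% of cells with most Icam1 in each library the interval reached across 0, at 0.56 (−0.19 to 1.31).

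Outside endothelium, fibroblast-gated cells held most Icam1 UMIs among the gated classes, and there the direction was opposite, at 23.2 CPM (15.2 to 34.0) and 47.8 CPM (35.6 to 62.9). The log2 ratio was −1.04 (−1.78 to −0.33). One fibroblast-gated cell of the library labelled IL34LacZ/+ held 17 of its 51 UMIs, and without the highest cell of each library the ratio was −0.75 (−1.61 to 0.07). The few microglia-gated cells held 1 UMI in 11 cells (32.4 CPM, 0.820 to 180) and 5 UMIs in 44 cells (56.2 CPM, 18.3 to 131), and choroid plexus epithelium held 15 and 17 UMIs (3.89 and 3.62 CPM).

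Icam2 (ENSMUSG00000001029, chromosome 11, 106377656 to 106388075, minus strand), which resting endothelium carries constitutively and which also binds leukocyte integrins, went the other way. Endothelial-gated cells held 118 Icam2 UMIs (69.8 CPM, 57.8 to 83.6) in the library labelled IL34LacZ/LacZ and 313 UMIs (114 CPM, 102 to 128) in the library labelled IL34LacZ/+, a log2 ratio of −0.71 (−1.03 to −0.40). It was found in 23.4% and 33.3% of cells, and in 17.6% and 24.3% after thinning. No cell held more than 8 Icam2 UMIs. The 8 endothelial marker genes, too, were together lower there (16761 against 19751 CPM), but not each of them. Flt1 (7162 and 8302 CPM), Slco1a4 (5216 and 5918), Cldn5 (1564 and 2261), Ly6c1 (661 and 995) and Egfl7 (735 and 883) were lower. Pecam1 (807 and 788 CPM) and Cdh5 (340 and 326) were slightly higher, and Tie1 (275 and 277) was nearly equal. The part of the marker genes in the Icam2 value was not tested.

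Icam2 was less bound to the venous zone, whose cells held 36.4% and 23.0% of its endothelial UMIs. Venous cells had 106 CPM (77.1 to 143) and 137 CPM (107 to 172), with overlapping intervals. With cells thinned to 3000 UMIs and gated again the venous log2 ratio was −1.27 (−2.62 to −0.07), an interval below 0, with Icam2 in 7 of 30 and 16 of 39 cells. Capillary cells had 53.3 CPM (40.5 to 68.9) and 85.4 CPM (72.4 to 100.1), with no overlap. Arterial cells had 75.0 CPM (30.1 to 154) from 7 UMIs and 218 CPM (170 to 275) from 70 UMIs. Endothelial-gated cells held 94.4% and 98.4% of all Icam2 UMIs, the most restricted pattern of the 4. The plots of levels by zone and of single cells show the contrast between Icam2 and the other 3 genes.

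**Figure D2:**
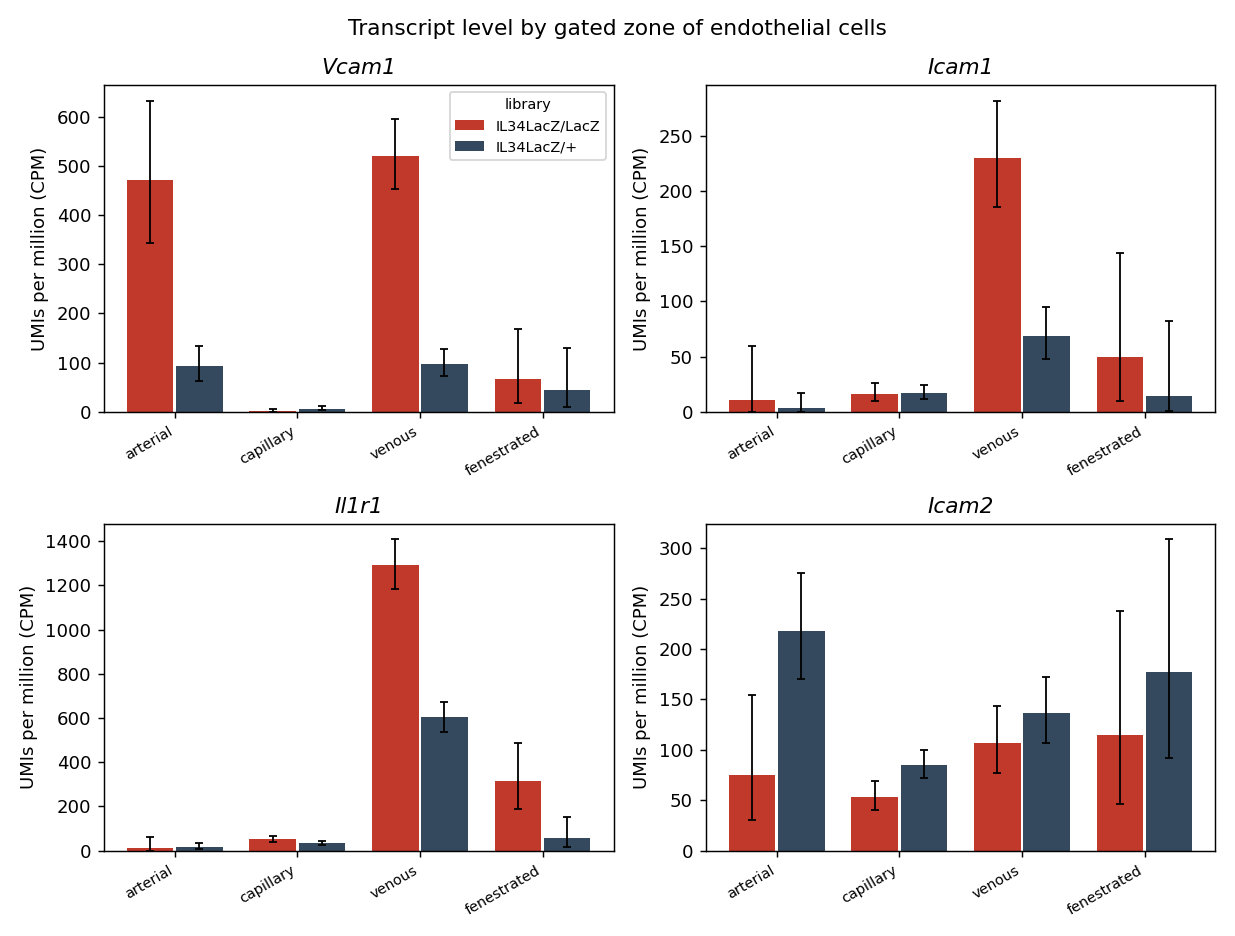
Level of 4 genes (CPM, y axis from 0) in endothelial-gated cells by vessel zone (x axis), with bars for the library labelled IL34LacZ/LacZ (red) left of the library labelled IL34LacZ/+ (blue-grey) and 95% Poisson intervals for counting error. Il1r1 and Icam1 peak in venous cells (1293 and 603 CPM for Il1r1), Vcam1 is high in arterial and venous cells, and Icam2 is spread over all zones and lower in the library labelled IL34LacZ/LacZ.

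**Figure D3:**
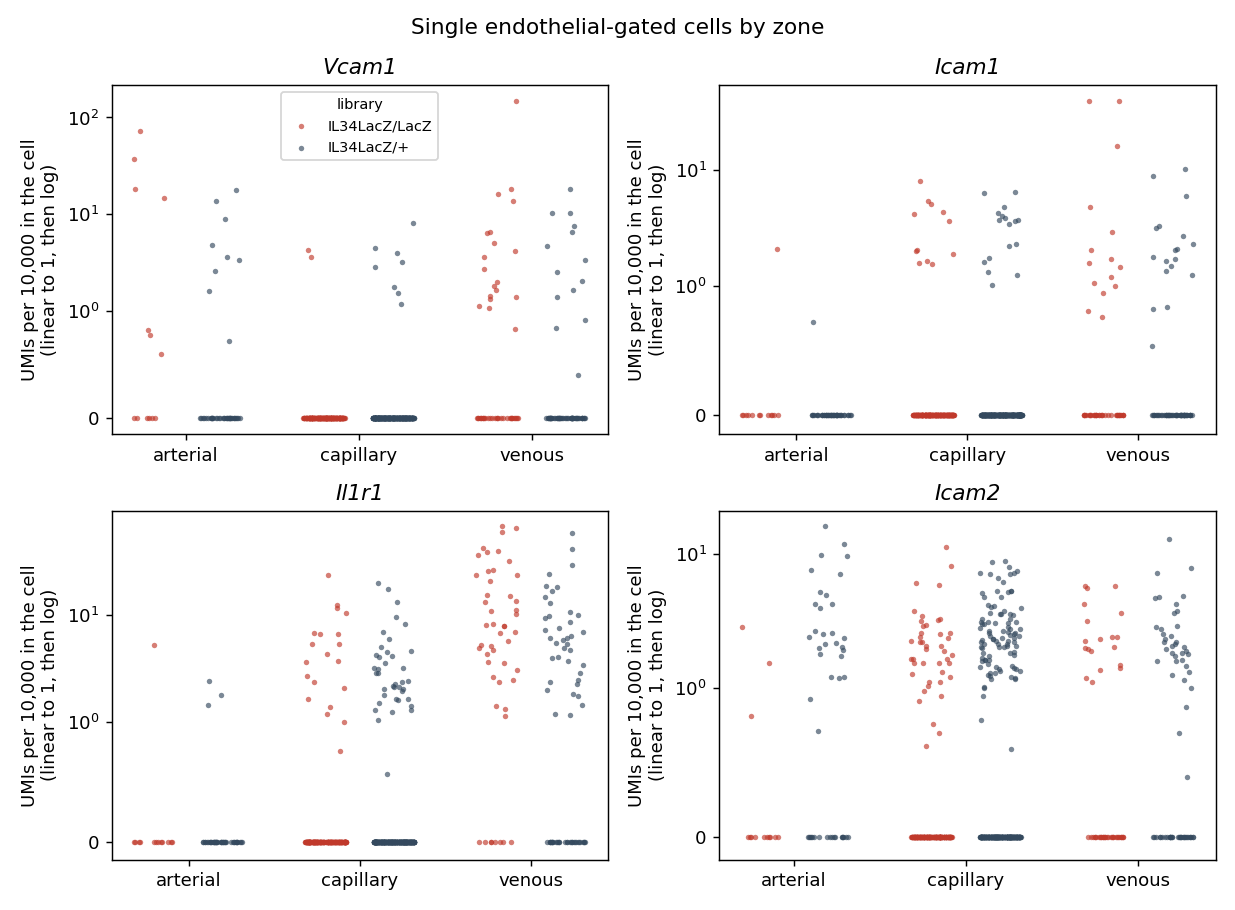
Each point is 1 endothelial-gated cell, with its UMIs of the gene per 10000 UMIs of the cell (y axis, linear to 1 and logarithmic above) by zone (x axis), for the library labelled IL34LacZ/LacZ (red, left) and the library labelled IL34LacZ/+ (blue-grey, right). One venous cell of the library labelled IL34LacZ/LacZ stands alone in Vcam1, with 134 UMIs, while Il1r1 is high in many venous cells of both libraries.

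Of the 8 genes, 4 reached 100 UMIs in endothelial-gated cells of both libraries together. Of these 3 were higher past 2-fold in the library labelled IL34LacZ/LacZ and 0 were lower, where 0.382% of 6287 genes measured were higher past 2-fold and 0.827% lower. In venous cells the same 4 genes reached 100 UMIs, of which 3 were higher past 2-fold and 0 lower, where 1.41% of 1983 genes were higher and 2.92% lower. Without the single high cell the higher count was 2 in both comparisons, since Icam1 (0.88) and, in venous cells, Vcam1 (0.99) then lay short of 2-fold. With barcodes over the mitochondrial limit kept, the endothelial log2 ratios were 2.15 for Vcam1, 1.41 for Icam1, 1.29 for Il1r1 and −0.71 for Icam2. The choice of the genes used these contrasts, so nothing is read from the counts. The median log2 ratio over all measured genes was −0.01 in endothelial-gated and 0.00 in venous cells. The plot of ratios sets each value beside the value without the single high cell.

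**Figure D4:**
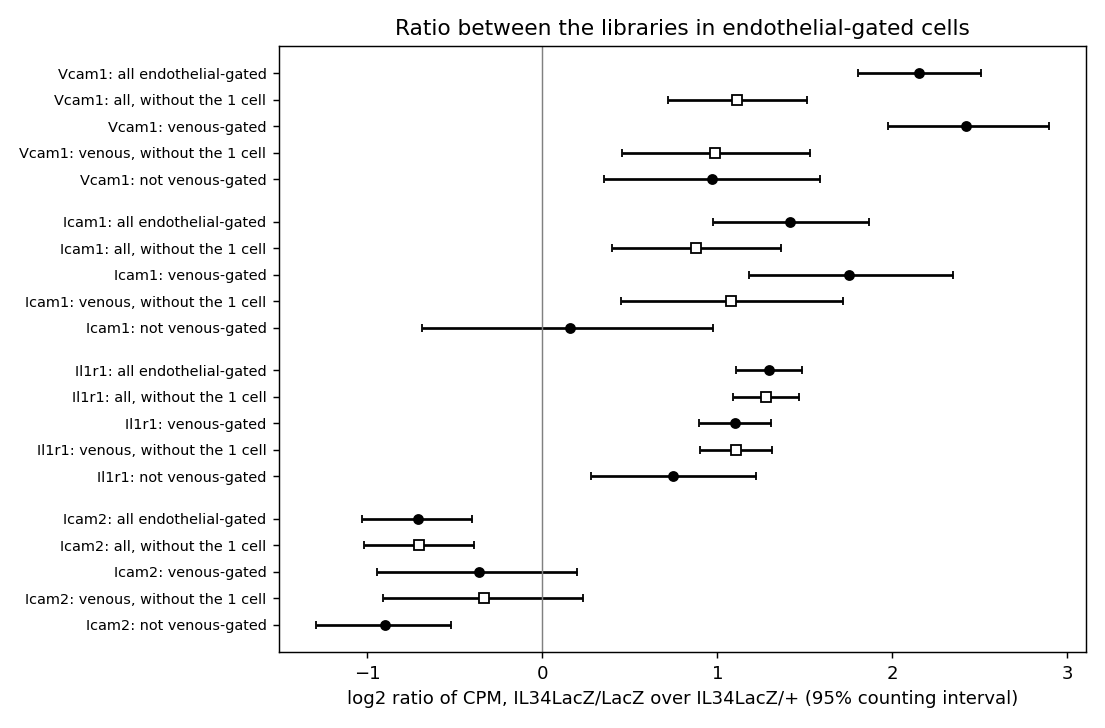
Log2 ratio of CPM (x axis), library labelled IL34LacZ/LacZ over library labelled IL34LacZ/+, for 4 genes in all endothelial-gated, venous-gated and other endothelial cells, with 95% counting intervals. Open squares leave out the 1 cell with most Cxcl10: Vcam1 then drops to 1.11 from 2.15 and Icam1 to 0.88 from 1.41, while Il1r1 (1.28) and Icam2 (−0.70) hardly move.

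The other 4 genes were rare. Ackr1 (ENSMUSG00000037872, chromosome 1, 173331886 to 173333750, minus strand), which binds and transports inflammatory chemokines on venules, gave 16 UMIs in 4 cells and 5 UMIs in 2 cells. All 6 cells were venous-gated, and the 250 and 446 other endothelial cells held none, which allows up to 1.20% and 0.673% of them with a captured UMI. The 4 cells of the library labelled IL34LacZ/LacZ held 10, 3, 2 and 1 UMIs and the 2 of the library labelled IL34LacZ/+ held 3 and 2. As background, the deeper oligodendrocyte-gated cells held 1 Ackr1 UMI in 1 of 237 cells (0.422%) and 5 UMIs in 4 of 252 (1.59%). Erythrocytes, which are not taken as background here, held 0 Ackr1 UMIs in 32 cells and 2 UMIs in 2 of 16 cells. Over all endothelial-gated cells the shares were 1.34% and 0.388%, so that of the library labelled IL34LacZ/+ did not stand above background. In venous cells of that library the level was 9.51 CPM (3.09 to 22.2), against 1.43 CPM (0.465 to 3.34) in its oligodendrocyte-gated cells. The log2 ratio was 2.38 (0.86 to 4.18), and 1 cell carried 10 of the 16 UMIs.

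Ch25h (ENSMUSG00000050370, chromosome 19, 34473778 to 34475164, minus strand), which makes 25-hydroxycholesterol, gave 13 UMIs in 3 cells and 1 UMI in 1 cell, with 11 of the 13 in 1 venous cell. The ratio was 21.1-fold with a log2 interval from 1.66 to 9.81. Lcn2 (ENSMUSG00000026822, chromosome 2, 32384633 to 32388252, minus strand), a secreted siderophore-binding protein, gave 4 UMIs in 3 cells and 1 UMI in 1 cell, a log2 ratio of 2.70 (−0.64 to 8.32).

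Cxcl10 (ENSMUSG00000034855, chromosome 5, 92346638 to 92348889, minus strand), an interferon-induced ligand of the lymphocyte receptor Cxcr3, gave 35 UMIs in 1 venous cell of the library labelled IL34LacZ/LacZ and 1 UMI in 1 venous cell of the library labelled IL34LacZ/+. The log2 ratio of 5.83 (3.25 to 11.17) compares these 2 cells. Without that cell, 0 of 298 endothelial-gated cells held Cxcl10, which allows up to 1.01% of cells with a captured UMI. Elsewhere Cxcl10 was also a matter of single cells. A fibroblast-gated cell held 140 of the 175 Cxcl10 UMIs of the library labelled IL34LacZ/LacZ, and 1 cell of no class held 63 of the 64 of the library labelled IL34LacZ/+.

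The cell with Cxcl10 was the cell with most Vcam1 and most Icam1. It held 9000 UMIs, 4.28% of them mitochondrial, and all 8 endothelial markers, with 2 markers of the next class, and Scrublet did not mark it as a doublet. Beside 134 Vcam1, 36 Icam1, 35 Cxcl10, 10 Il1r1 and 1 Ackr1 UMIs it held 25 UMIs of the prostaglandin synthase Ptgs2, 13 of Nfkbia and 40 of the venous marker Vwf. A second venous cell of that library, with 7244 UMIs, held 29 Icam1, 13 Vcam1, 19 Il1r1, 15 Nfkbia and 11 Ptgs2 UMIs and no Cxcl10. Another, with 7061 UMIs, combined 45 Il1r1, 10 Ackr1, 11 Ch25h and 16 Ptgs2 UMIs with 1 Vcam1 UMI and no Icam1. The combinations thus differed from cell to cell. These cells were picked after their values were seen.

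Several of the 8 genes were often found in the same cells. Il1r1 was present in 21 of 29 Vcam1-positive endothelial cells (72.4%, 52.8 to 87.3) of the library labelled IL34LacZ/LacZ and in 15 of 33 (45.5%, 28.1 to 63.6) of the library labelled IL34LacZ/+, against 22.4% and 16.9% of all endothelial cells. Icam1 was present in 12 of 29 (41.4%) and 12 of 33 (36.4%). Zone entered these shares. Among Vcam1-positive venous cells 19 of 19 and 13 of 14 held Il1r1, where 83.7% and 55.7% of all venous cells did. Outside the venous gate 2 of 10 (interval 2.52 to 55.6%) and 2 of 19 (10.5%, 1.30 to 33.1) held it, against 10.4% and 10.8% of all cells there. Cells with at least 4 of the 8 genes numbered 9 and 6. Of these 8 were venous-gated in the library labelled IL34LacZ/LacZ and 6 in the library labelled IL34LacZ/+. Venous cells were also deeper than the rest, and the part of depth in co-detection was not tested.

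Genes around the 8 were read from lists of known partners, counting a gene only past a ratio of 1.5-fold and with an interval that excluded 1, among genes with at least 30 UMIs. By this rule 3.14% of 9912 genes were higher and 6.65% lower in endothelial-gated cells of the library labelled IL34LacZ/LacZ, with a median log2 ratio of −0.03. Of 20 other adhesion genes of endothelium 17 were measured, and 0 were higher and 1 lower, with a median of 0.02. These counts are near the shares over all genes. The lower gene was the adhesion molecule Alcam, with 143 and 221 CPM (log2 −0.63, −0.85 to −0.41). Pecam1, the junction protein of all endothelium, had 807 and 788 CPM (log2 0.03), Podxl had 673 and 528 CPM (log2 0.35), Jam2 had 351 and 347 CPM, and Cd34 had 331 and 354 CPM. Pecam1 and Cdh5, both on this list, were also markers of the endothelial gate. Cells thus entered the class partly by holding them, which limits what their levels show. The selectin Sele, induced by cytokines, had 0 UMIs in both libraries, and Selp had 2 and 1. In venous cells alone, 6.43% of 5072 genes were higher by the rule and 8.12% lower. There 0 of 14 adhesion genes were higher and 1 was lower, again Alcam, with 116 and 301 CPM (log2 −1.37, −1.87 to −0.89).

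In the interleukin-1 receptor pathway, 2 of 13 measured genes were higher and 1 lower, with a median log2 ratio of 0.08. Irak4, the kinase that starts the signal, had 27.8 and 12.8 CPM (47 and 35 UMIs, log2 1.12, 0.46 to 1.80). Irak3, which dampens it, had 33.7 and 21.2 CPM (log2 0.67, 0.12 to 1.23), and the ubiquitin ligase Traf6 had 29.6 and 50.7 CPM (log2 −0.78, −1.27 to −0.30). The adaptor Tab2 had 175 and 170 CPM, and the receptor partner Il1rap had 55.0 and 47.8 CPM (log2 0.20, −0.20 to 0.60). In venous cells 2 of 8 measured genes of the pathway were higher and 0 lower. These were Il1rap, with 89.1 and 51.4 CPM (log2 0.80, 0.04 to 1.57), and the kinase gene Irak2, with 116 and 62.8 CPM (log2 0.89, 0.22 to 1.58). Outside the venous gate Il1rap had 44.3 and 46.9 CPM (log2 −0.08, −0.57 to 0.40). The ligands were almost absent from these cells, with 0 and 1 UMI of Il1a and 0 UMIs of Il1b in both libraries. Of the integrin genes that leukocytes use to bind Vcam1 and Icam1, 2 of 8 were measured in endothelial cells and 0 passed in either direction: Itga4 had 53.3 and 36.5 CPM and Itgb1 286 and 243 CPM.

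Of 11 measured NF-kB subunits and inhibitors, 0 were higher and 0 lower, with a median log2 ratio of 0.05. The subunit gene Nfkb1 had 233 and 243 CPM, and Nfkbia, a direct target, had 178 and 176 CPM (log2 0.02, −0.20 to 0.23). Another pair lay just short of the rule: Nfkbiz had a log2 ratio of 0.58 (0.11 to 1.06) and Tnfaip3 of 0.66 (0.00 to 1.33), and both passed it when mitochondrial, ribosomal protein and haemoglobin UMIs were left out of the total. In venous cells 1 of 7 was higher and 0 lower. It was Nfkbiz, with 86.7 and 45.6 CPM (log2 0.92, 0.13 to 1.74), and without the cell with most Vcam1 its ratio was 0.69 (−0.14 to 1.53). Of 14 measured cytokine-induced genes, 1 was higher and 1 lower, with a median of 0.26. Ptgs2, the inducible prostaglandin synthase, had 82 and 48 UMIs (log2 1.47, 0.94 to 2.02), of which 73 and 29 were in venous cells. The cell with most Vcam1 held 30.5% of the 82, and without it the log2 ratio was 0.95 (0.37 to 1.54). The early response gene Junb was the lower one, with 20.1 and 37.9 CPM (log2 −0.91, −1.52 to −0.34). In the library labelled IL34LacZ/+ a single cell held 43.3% of its 104 UMIs, and in the library labelled IL34LacZ/LacZ 20.6% of 34. The Junb ratio without these cells was not computed. The cytokine receptor Osmr had 216 and 189 CPM (log2 0.19), and Ccl2 had 0 UMIs in both libraries. In venous cells 3 of 10 genes of this list were higher and 1 lower, with a median of 0.14. The higher ones were Ptgs2 (log2 1.71, 1.07 to 2.39), Osmr, with 290 and 192 CPM (log2 0.59, 0.20 to 0.99), and Lrg1, a secreted glycoprotein, with 22 and 12 UMIs (log2 1.26, 0.18 to 2.40). The venous Lrg1 UMIs lay in 5 and 3 cells, with 40.9% and 75.0% of them in a single cell. Outside the venous gate Osmr had a log2 ratio of 0.04 (−0.20 to 0.27). Lrg1 went the other way there, with 0 and 9 UMIs, and over all endothelial-gated cells it had 22 and 21 UMIs. The lower gene was again Junb, with 11 and 56 UMIs in 2 and 10 cells. A single cell held 63.6% of the 11 and another 80.4% of the 56. The venous Junb ratio without these cells was not computed.

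Among partners of the chemokine, oxysterol and lipocalin genes, 3 of 7 were measured, 0 were higher and 1 was lower, with a median log2 ratio of −0.33. That gene was Cyp7b1, which converts 25-hydroxycholesterol, with 8 and 34 UMIs (log2 −1.39, −2.71 to −0.25). These lay in 4 and 15 cells, with 37.5% and 17.6% of them in a single cell. Venous cells held 0 Cyp7b1 UMIs in both libraries. The scavenging receptor Ackr3 had 75.2 and 66.0 CPM (log2 0.19).

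Profiles over 17 units, each a class or zone of 1 library with at least 20 cells, were compared by the Pearson correlation of log2(CPM + 10) among 11106 genes. Icam2 had near neighbours, the transcription factor Gata2 (r = 0.98), Myct1 (0.98) and Srarp (0.99). Il1r1 was most like Net1 (0.90), Gm5127 (0.87) and Adgrg6 (0.83), the last of which is among the markers of the venous gate. Icam1 was most like Irak4 (0.87), Tspan18 (0.86) and Sdk1 (0.85). For Vcam1 the nearest, Lynx1 (0.79), Glrx (0.76) and Rdh13 (0.75), were less alike. The units share 2 libraries and their free RNA, so these values describe likeness only.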

How the data were processed

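Single-cell RNA was measured in 2 libraries, 1 per genotype, with the Chromium Single Cell 3-prime kit v3.1 according to the labels. The authors deposited UMI counts by gene and barcode from Cell Ranger 7.1.0, as the file headers state. GRCm38.p6 (mm10) is the build named in the submitters' processing notes. The annotation release and any correction for free RNA are not given in the sources used here.

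Kept barcodes had 1000 or more UMIs, 500 or more genes and no more than 15% mitochondrial UMIs. Scrublet in scanpy 1.11.5 marked 7 (0.596%) and 3 (0.180%) doublets in the libraries labelled IL34LacZ/LacZ and IL34LacZ/+, which were removed. At so low a rate it may have missed doublets. Of all barcodes 8 were present in both libraries. Classes were gated by the number of detected markers (at least 4, leading by 2). Endothelial zones needed at least 3 markers and more than the opposite zone. Erythrocytes were cells with at least 50% haemoglobin UMIs. The limits of the gates were set after marker counts, but no member, had been looked at.

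Counts were summed by class and library. CPM carries exact Poisson intervals, shares exact Clopper-Pearson intervals and ratios exact conditional binomial intervals, which were checked on simulated counts. A count of 0 allows up to 3 counts. With 1 library per genotype no p-value was computed. The 8 genes and all lists were chosen with earlier results of these data known. Named genes were the 8, list genes that passed the rule, up to 4 more of each list with most UMIs, and the 3 of most alike profile. Il1rap, Nfkbiz, Tnfaip3 and the rare list genes given by their UMIs were named after their values were seen. So were the list genes below the count minimum in venous cells. The lists were read in venous cells alone after endothelial values were known. Promoter sequences are those of RefSeq on GRCm38.p6, and positions come from GENCODE M21. Alternatives covered cell filters, doublets, gates, thinning to 3000 UMIs, scaling, single cells of high counts and the count minimum.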

Additional observations from a re-analysis of the deposited data

Results flagged for a closer look

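The ratio between the libraries had opposite directions for Icam1 in 2 cell classes. It was above 0 in endothelial-gated cells (log2 1.41, 0.97 to 1.86) and below 0 in fibroblast-gated cells (log2 −1.04, −1.78 to −0.33), so the 2 ratios lay 2.46 apart on the log2 scale. Set against venous-gated cells alone (1.75, 1.18 to 2.35), the gap was 2.79. The difference between the classes was not tested, since each genotype has 1 library. Both ratios leaned on single cells: without the 1 endothelial cell with most Cxcl10 the endothelial ratio was 0.88 (0.40 to 1.37), and without the highest cell of each library the fibroblast ratio was −0.75 (−1.61 to 0.07).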

How the results depend on the processing

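No paired analysis was possible because each genotype has 1 library. Of 92 values recomputed under alternatives, 73 stayed within the counting interval or, for counts of genes, within 1.5-fold, and 0 reversed. The 73 include values that could not move. Keeping the cells marked by Scrublet left the same 299 and 516 endothelial-gated and 49 and 70 venous-gated cells. With the highest 2% of cells for each gene left out, the endothelial log2 ratio was 1.53 for Vcam1, 0.56 for Icam1 (interval across 0) and 1.69 for Il1r1. Without the 1 cell with most Cxcl10, a choice made after seeing the data, it was 1.11 for Vcam1 and 0.88 for Icam1, and 0.99 and 1.08 in venous cells. With cells thinned to 3000 UMIs the venous ratio was −1.27 for Icam2 (interval below 0) and 1.67 for Il1r1. Genes past 2-fold in endothelial cells numbered 24 higher and 52 lower. After thinning, which leaves fewer UMIs and so fewer genes to measure, they were 8 and 13, and with a minimum of 30 UMIs, which admits more genes, 123 and 326. The venous share moved with the gate. Without the markers Slc38a5 and Adgrg6 it was 11.04% in the library labelled IL34LacZ/LacZ and 9.11% in the library labelled IL34LacZ/+, and with 1 more marker required, also chosen after seeing the data, 10.0% and 6.98%. Thinning gave 10.3% in the library labelled IL34LacZ/+. With mitochondrial, ribosomal protein and haemoglobin UMIs left out of the total, 2 NF-kB genes were higher and not 0. The limit on mitochondrial share removed only 1 and 1 barcodes that would have been endothelial-gated. Depth limits Ackr1, Ch25h, Lcn2 and Cxcl10, which had 5 to 36 endothelial UMIs over both libraries.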
